A study of Mus musculus with 235 samples.

Results

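The comparison described here is between the dorsal dentate gyrus (dDG) and the ventral dentate gyrus (vDG) of the same vehicle-injected mice. The members are 30 of the 235 messenger RNA libraries of the series: 15 dDG and 15 vDG libraries, 1 of each from every vehicle mouse, chosen by region and treatment labels and not by any measured value. The whole series covers 8 brain regions of 3-month-old male C57Bl/6 mice with no mutation stated, of which 15 were given the synthetic glucocorticoid dexamethasone (10 mg per kg) and 15 were given saline as vehicle. The vehicle mice, like the treated ones, had an intraperitoneal injection 4 h before tissue was taken, so the baseline is that of saline-injected animals. Regions were punched out of coronal sections with stereotaxic coordinates, and a punch holds every cell type that falls inside it. The libraries count the 3' ends of transcripts (QuantSeq, with unique molecular identifiers), and values are given below as CPM, counts scaled to a common library total with the trimmed mean of M values (TMM).

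The dentate gyrus is the entry station of the hippocampal circuit. Its principal neurons, the granule cells, receive cortical input and project through mossy fibres to hilar mossy cells and CA3 pyramidal cells. The dorsal end of the hippocampus is known for its part in spatial memory and the ventral end for its part in anxiety-related behaviour and stress regulation, and pyramidal cells and granule cells of both ends differ in the genes they express. Transcription factors, guidance receptors and adhesion molecules that are laid down along this axis in development partly stay graded in the adult.

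The labels were compared with defining markers. A granule cell level was formed as the mean log2(CPM + 1) of 6 genes (Prox1, Dsp, Stxbp6, Plk5, Dock10 and C1ql2). It ran from 4.00 to 8.34 (median 7.26) in dDG and from 5.09 to 7.38 (median 5.80) in vDG. Its mean was 7.15 ± 1.10 (SD, n = 15) in dDG and 6.02 ± 0.745 (SD, n = 15) in vDG, and dDG was higher in 12 of 15 mice (two-sided exact permutation test within mice, p = 0.00995, adjusted over 5 measures p = 0.0249). The CA1 pyramidal level, formed the same way from 7 genes, was 5.15 ± 0.989 (SD, n = 15) in dDG and 4.77 ± 0.733 (SD, n = 15) in vDG (exact permutation p = 0.32). In 2 dDG libraries (replicates 1 and 2) and 2 vDG libraries (replicates 10 and 12) the CA1 level lay above the granule level, 2 means over different genes that are not scaled by transcript length; replicate 1 had 4.00 against 6.21 in dDG. Choroid plexus genes, which come from the secretory epithelium next to the hippocampus, had a mean level of 5.65 ± 2.28 (SD, n = 15) in dDG and 3.73 ± 0.739 (SD, n = 15) in vDG, higher in dDG in 10 of 15 mice (exact permutation p = 0.00659, adjusted p = 0.0249). These genes, with the ependymal markers and every gene that followed the choroid level, are not described one by one below; counts over all genes include them unless said otherwise. Total counts ran from 388915 to 1197849 in dDG and from 314375 to 1110771 in vDG, and neither they (exact permutation p = 0.98) nor RNA integrity (5.95 ± 1.23 against 6.20 ± 1.00, SD, n = 15 each, p = 0.60) separated the punches by these tests. In a bulk punch, fewer cells of a type and less RNA per cell cannot be told apart.

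**Figure D1:**
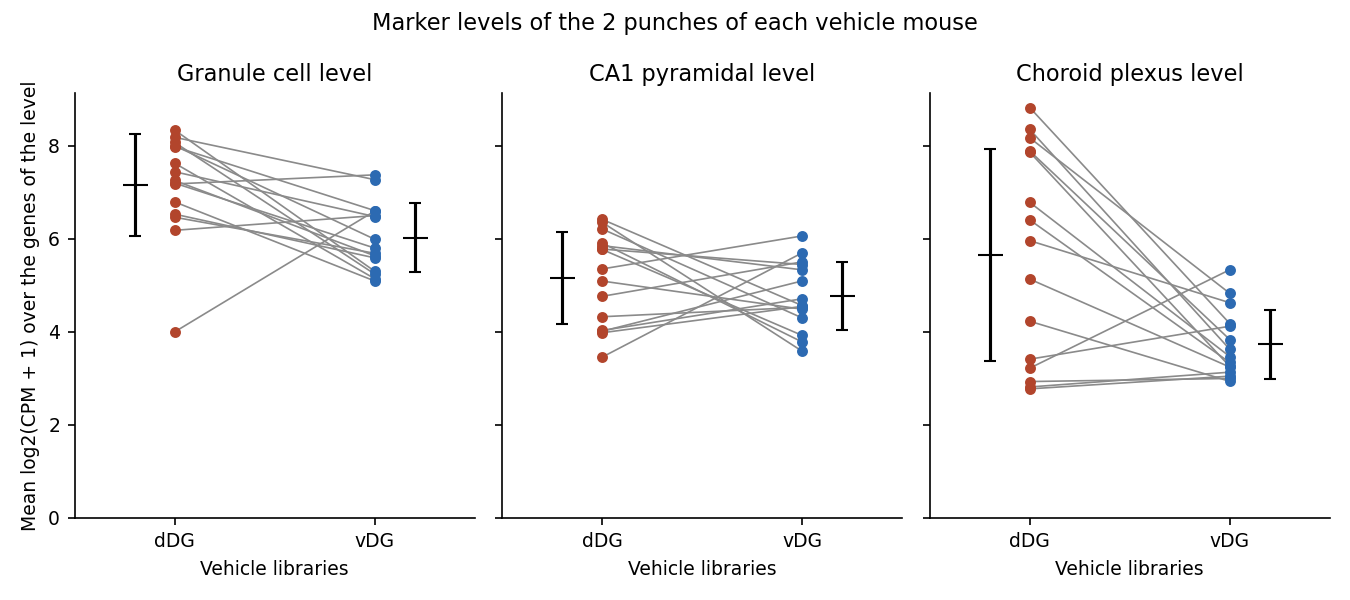
Marker levels (mean log2(CPM + 1), y axis) in the dDG and vDG libraries of the 15 vehicle mice; each grey line joins the 2 punches of 1 mouse, and black marks give the mean and SD. The granule level was higher in dDG in 12 of 15 mice, 1 dDG library had a granule level of 4.00, and the choroid level spread from 2.77 to 8.82 in dDG.

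Across 8682 genes tested with the mouse as a block (edgeR quasi-likelihood test, Benjamini-Hochberg adjusted p under 0.05), 1003 genes or 11.6% differed between the 2 ends of the dentate gyrus. Of these, 514 (5.92%) were higher in dDG and 489 (5.63%) higher in vDG; apart from choroid plexus genes the counts were 506 and 489. Of the called genes, 66 were at least 2-fold higher in dDG and 68 at least 2-fold higher in vDG, and the median change was 0.60 (log2) among genes higher in dDG and -0.61 among genes higher in vDG. For 5557 genes (64% of those tested) the 95% interval of the difference lay within 0.5 of 0 on the log2 scale. The ranges of the 15 dDG and 15 vDG libraries did not overlap at all for 12 genes (0.138%). They were Lrrc10b, Wipf3, Camta2, Mfsd4a, Inf2, Zfhx4 and Adcy1, higher in dDG, and Atp2b4, Kit, Tenm4, Car10 and Edil3, higher in vDG. Camta2, Mfsd4a, Adcy1, Car10 and Edil3 are named for that reason, after their values were seen.

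The same contrast in the 15 dexamethasone-injected mice uses other animals and shares no library with the vehicle comparison. Those mice also had a higher mean granule level in dDG, 7.29 against 5.90 in vDG. Of the 986 vehicle calls that were tested there, 976 (99%) had the same direction and 752 (76.3%) were also called in that direction, 400 of them higher in dDG and 352 higher in vDG, beside a background of 17.5% of 9002 genes called in those mice (9.15% higher in dDG, 8.31% higher in vDG); 0 were called in the opposite direction. When the granule level was put into the fit, so that punches were compared at an equal level, 361 genes (4.16%; 2.29% higher in dDG, 1.87% higher in vDG) were called, and 284 of the 1003 remained called in the same direction (165 higher in dDG, 119 higher in vDG). With both the granule and the CA1 level in the fit, 136 genes (1.57%; 0.61% higher in dDG, 0.956% higher in vDG) were called, 114 of them among the 1003 and in the same direction. With the granule level alone in the fit, the median of the 5 tested CA1 markers was log2 0.79, against 0.26 in the reported fit. In that fit 2 of these 5 were called, against 4.16% of all genes. Without the 4 mice in which a CA1 level exceeded the granule level, 854 genes were called, 737 of them shared. With the choroid level in the fit 338 genes were called, of which 328 were shared. Within single punching dates 85.8% (the date with 1 mouse) to 99.4% of the 1003 calls kept their direction, and within single plates 88.1% to 98.9%; the calls were made from these same libraries, so that these shares are largely fixed by the choice of genes. The part of the granule, CA1 and choroid levels in any single gene's difference was not tested beyond these fits. Fewer genes were shared with the dexamethasone mice when the granule level was in both fits, as given in the last section.

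**Figure D2:**
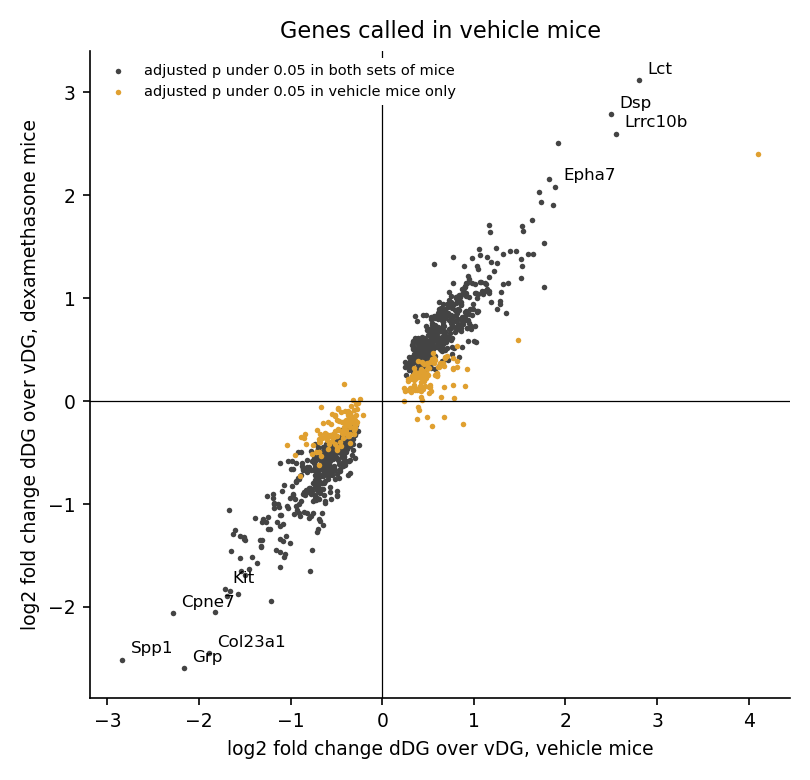
Log2 fold change of dDG over vDG in vehicle mice (x axis) and in dexamethasone mice (y axis) for the genes called in vehicle mice and tested in both; dark points were called in both sets of mice, 752 of 986 in the same direction. Lct, Dsp and Lrrc10b lie at the dorsal end and Spp1, Grp and Cpne7 at the ventral end in both; the point farthest to the right, Ttr, is a choroid plexus gene.

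Genes known to mark the dorsal or ventral pole of the hippocampus were described first. Of 6 tested genes of the dorsal list, 3 were higher in dDG and 1 was higher in vDG (66.7% called against 11.6% of all genes; median log2 fold change 0.72, against -0.01 over all genes). Lct, which encodes lactase, is a dorsal marker of the dentate gyrus (chr1:128284756-128328318, minus strand). Its values ran from 11.1 to 77.2 CPM (median 33.9) in dDG and from 0 to 19.9 CPM (median 2.66) in vDG. dDG had more in 15 of 15 mice, although 2 ventral libraries, at 19.1 and 19.9 CPM, lay above the lowest dorsal ones, and the fit gave a log2 difference 2.80 with SE 0.36 and adjusted p = 7.96e-06. The difference was log2 3.12 (adjusted p = 1.41e-08) in dexamethasone mice, log2 1.75 (adjusted p = 0.0252) with the granule level in the fit and log2 1.32 (adjusted p = 0.20) with the CA1 level added. Spata13, a guanine nucleotide exchange factor, ran from 8.4 to 92.5 CPM (median 48) in dDG and from 4.39 to 31.9 CPM (median 17.8) in vDG. The dorsal punch had more in 14 of 15 mice (log2 1.40, adjusted p = 0.000221), and the value was log2 0.73 (adjusted p = 0.19) at equal granule level. Fibcd1, a chitin-binding membrane protein known from dorsal CA1, had medians of 39.4 CPM in dDG and 13.8 in vDG (log2 1.17, adjusted p = 0.0149) and log2 1.95 (adjusted p = 0.0039) at equal granule level. Fibcd1 is 1 of the 7 genes of the CA1 level, and its call was lost with that level added, log2 1.12 (adjusted p = 0.12), and with the choroid level in the fit, log2 1.06 (adjusted p = 0.20). Ccn3, a secreted matricellular protein on the same list, went the other way, with medians of 29.1 CPM in dDG and 67.9 in vDG (log2 -1.14, adjusted p = 0.0288); its call was lost without replicate 3, 8, 10, 14 or 15 (log2 from -1.10 to -0.95, adjusted p from 0.053 to 0.0725), and the value was log2 -0.26 (adjusted p = 0.78) at equal granule level. Wfs1 and Man1a did not pass the test (-0.41 and 0.26), and Wfs1 was log2 0.17 (adjusted p = 0.87) at equal granule level. Without the count filter the same test called Wfs1 higher in vDG (adjusted p = 0.0373). Gsg1l and Stra6 did not reach the filter on low counts. Over the 15 dDG and the 15 vDG libraries Gsg1l had 143 and 199 counts, and Stra6 had 45 and 22.

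Of 11 tested genes of the ventral list, 6 were higher in vDG and 0 higher in dDG (54.5% called against 11.6% of all genes, median -0.69), and 5 of the 6 kept the call at equal granule level. Nr2f2, the nuclear receptor COUP-TFII, lies at chr7:70351944-70366735, minus strand. Its values ran from 31.5 to 139 CPM (median 62) in dDG and from 124 to 365 CPM (median 203) in vDG. Every mouse had more in vDG, and the highest dorsal library reached into the ventral range (log2 difference -1.57 with SE 0.20 and adjusted p = 7.96e-06), and the value was log2 -1.87 (adjusted p = 1.08e-08) in dexamethasone mice and log2 -1.35 (adjusted p = 0.00164) at equal granule level. Its paralogue Nr2f1 (COUP-TFI) ran from 205 to 422 CPM (median 241) in dDG and from 279 to 566 CPM (median 421) in vDG. In 14 of 15 mice vDG had more (log2 -0.69, adjusted p = 6.44e-05). Grp, gastrin-releasing peptide, was at or near 0 in several dorsal libraries and ran from 0 to 33.2 CPM (median 3.95) in dDG and from 9.59 to 79.3 CPM (median 31) in vDG. The highest dorsal value belonged to replicate 1, the dDG library with the low granule level. The fit gave a log2 difference -2.17 with SE 0.35 and adjusted p = 0.000141. Grp lost its call in the 5 mice with a low choroid level (adjusted p = 0.12). Resp18, a protein of neuroendocrine secretory granules, was higher in vDG in 15 of 15 mice (medians of 19.4 CPM in dDG and 58.2 in vDG; log2 -1.33, adjusted p = 2.24e-05). Efnb2, the membrane-bound ligand ephrin-B2, had medians of 10.3 CPM in dDG and 30.7 in vDG (log2 -1.25, adjusted p = 6.49e-05), and Tox3, an HMG-box protein, medians of 13.9 CPM in dDG and 26.6 in vDG (log2 -0.71, adjusted p = 0.00598). Tox3 was the 1 that lost its call at equal granule level, with log2 -0.79 (adjusted p = 0.062). Lypd1, Dcn, Etv1, Htr2c and Cyp26b1 did not pass the test, with log2 values of -0.29, -0.27, -0.24, 0.19 and 0.10. Htr2c, a serotonin receptor that choroid plexus expresses strongly, had -1.18 (adjusted p = 0.0234) once the choroid level was in the fit. Etv1 was log2 0.51 (adjusted p = 0.23) at equal granule level. In dexamethasone mice Dcn was called higher in vDG, log2 -0.91 (adjusted p = 0.00502). Trhr, the receptor for thyrotropin-releasing hormone, did not reach the filter on low counts; it had 9 counts over the 15 dDG libraries and 197 over the 15 vDG libraries, and was detected in 6 of the former and 15 of the latter.

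Apart from these lists, the genes with the largest differences were chosen by size among called genes with a mean of at least 10 CPM and the same direction in at least 13 of 15 mice, 15 per direction. On the dorsal side, Lrrc10b, a leucine-rich repeat protein (chr19:10455371-10457447, minus strand), ran from 27.6 to 94 CPM (median 57.2) in dDG and from 2.65 to 22.1 CPM (median 7.99) in vDG. No dorsal library overlapped a ventral one, and dDG was 5.85-fold higher (log2 difference 2.55 with SE 0.21 and adjusted p = 2.36e-08). Wipf3, which binds the actin regulator N-WASP (chr6:54429603-54503768, plus strand), ran from 426 to 1005 CPM (median 762) in dDG and from 101 to 424 CPM (median 218) in vDG. Its groups stood just apart, and the difference was log2 1.76, adjusted p = 3.77e-07. Inf2, a formin that assembles and severs actin filaments, also had separate groups, from 41.5 to 122 CPM (median 68.5) in dDG and from 15.8 to 32 CPM (median 28.1) in vDG, with log2 1.52, adjusted p = 1.33e-06. Dsp, the desmosomal protein desmoplakin and a granule cell marker, ran from 0 to 245 CPM (median 94.2) in dDG and from 0 to 104 CPM (median 10.3) in vDG. dDG had more in 13 of 15 mice (log2 difference 2.50 with SE 0.38 and adjusted p = 7.23e-05). Dsp is 1 of the 6 genes of the granule level, and at equal granule level its value was log2 0.65 (adjusted p = 0.25). Itga7, the laminin-binding integrin alpha 7 subunit, was higher in dDG in 15 of 15 mice with log2 1.52, adjusted p = 7.75e-06, and Dnah9, an axonemal dynein heavy chain, in 15 of 15 mice with log2 1.59, adjusted p = 4.70e-06.

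Hpca, hippocalcin, a neuronal calcium sensor, ran from 338 to 979.7 CPM (median 594) in dDG and from 82.2 to 393 CPM (median 221) in vDG. All 15 mice had more in dDG (log2 difference 1.53 with SE 0.17 and adjusted p = 1.39e-06), and the value was as large at equal granule level, log2 1.56 (adjusted p = 7.82e-05). Orai2, a subunit of store-operated calcium channels, had medians of 105 CPM in dDG and 35.7 in vDG (log2 1.64, adjusted p = 6.25e-06), and its value at equal granule level was log2 0.95 (adjusted p = 0.00707). Plekha2, an adaptor that binds phosphoinositides, had medians of 144 CPM in dDG and 35.1 in vDG (log2 1.71, adjusted p = 2.72e-05). Ndst4, an enzyme of heparan sulfate synthesis that was also on the list of subicular markers, had medians of 29 CPM in dDG and 5.94 in vDG (log2 1.65, adjusted p = 6.82e-05). Of 6 tested markers of subiculum and neighbouring cortex, Ndst4 was the 1 higher in dDG, and 2 were higher in vDG, Tshz2 (log2 -1.69, adjusted p = 0.0132) and Fn1 (log2 -0.75, adjusted p = 0.0148), 50% called against 11.6% of all genes. The summed level of that list ran from 148 to 1228 CPM in dDG (median 295) and from 227 to 1141 CPM in vDG (median 606), with dDG higher in 4 of 15 mice, and its part in the differences was not tested. Lingo3, a leucine-rich repeat and immunoglobulin domain protein, was higher in dDG in 15 of 15 mice (log2 1.82, adjusted p = 6.17e-06). Fam84b and Fam163b had log2 fold changes of 1.92 and 1.74. All 15 of these dorsal genes were also called in dexamethasone mice in the same direction, and 14 of 15, all but Dsp, kept the call at equal granule level.

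**Figure D3:**
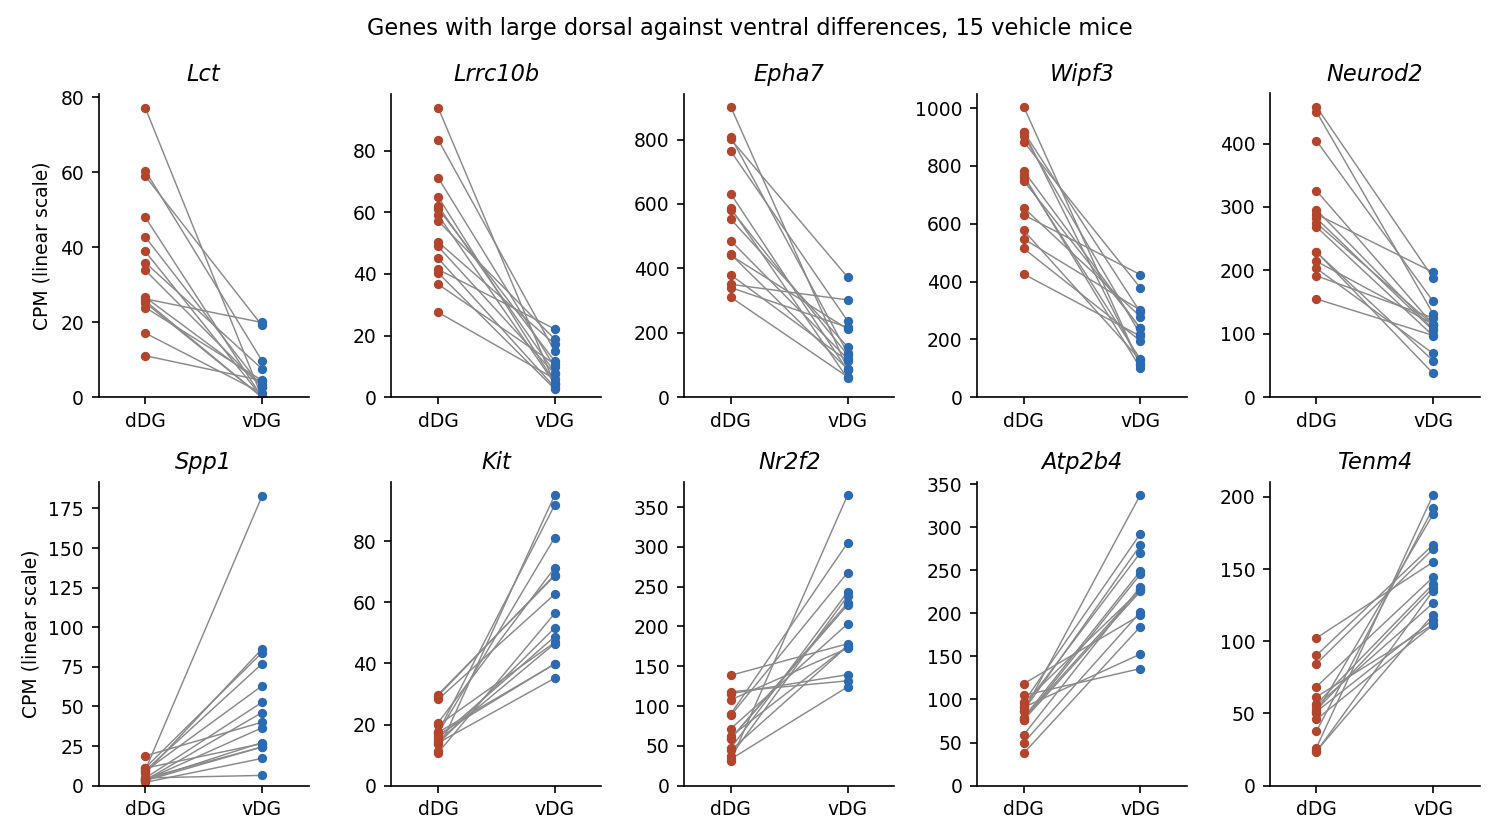
CPM on a linear scale (y axes differ and start at 0) of 5 genes higher in dDG (top row) and 5 genes higher in vDG (bottom row); each line joins the 2 punches of 1 vehicle mouse. Lrrc10b, Wipf3, Kit, Atp2b4 and Tenm4 show no overlap between the punches, while Lct reaches 19.9 CPM and Spp1 183 CPM in single vDG libraries.

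Among the 15 largest differences on the ventral side was Spp1, osteopontin, a secreted phosphoprotein (chr5:104435118-104441050, plus strand), which ran from 2.1 to 18.8 CPM (median 4.89) in dDG and from 6.48 to 183 CPM (median 40) in vDG. Every mouse had more in vDG, 1 ventral library stood far above the rest, and vDG was 7.16-fold higher (log2 difference -2.84 with SE 0.22 and adjusted p = 1.37e-08). Kit, the receptor tyrosine kinase for stem cell factor (chr5:75574916-75656722, plus strand), ran from 10.7 to 29.8 CPM (median 17.1) in dDG and from 35.2 to 95.1 CPM (median 56.3) in vDG. Its groups did not overlap (log2 difference -1.72 with SE 0.14 and adjusted p = 2.64e-08). Atp2b4, a plasma membrane calcium pump (chr1:133699457-133801041, minus strand), ran from 37.6 to 118 CPM (median 86.1) in dDG and from 136 to 337 CPM (median 228) in vDG. These groups did not overlap either (log2 difference -1.51 with SE 0.12 and adjusted p = 1.82e-08), and the value at equal granule level was log2 -1.65 (adjusted p = 4.21e-07). Tenm4, a teneurin, a trans-synaptic adhesion protein (chr7:96171246-96911093, plus strand), ran from 23.6 to 102 CPM (median 52.5) in dDG and from 111 to 201 CPM (median 139.8) in vDG. The lowest ventral library lay above the highest dorsal one (log2 -1.50, adjusted p = 5.93e-07). Cpne7, a copine, a calcium-dependent phospholipid-binding protein, ran from 11.8 to 67.2 CPM (median 27.4) in dDG and from 50.9 to 249 CPM (median 157) in vDG. The ventral punch had more in 15 of 15 mice (log2 -2.28, adjusted p = 1.33e-06). Unc13c, a presynaptic vesicle-priming factor, had medians of 35.7 CPM in dDG and 164 in vDG (log2 -1.83, adjusted p = 1.49e-05), and 1 dorsal library reached 238 CPM.

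Col23a1, a transmembrane collagen, was 0 in at least 1 dorsal library and had medians of 5.54 CPM in dDG and 21.1 in vDG (log2 -1.90, adjusted p = 8.19e-06). Col6a1, a chain of collagen VI, had medians of 6.3 CPM in dDG and 21.3 in vDG (log2 -1.56, adjusted p = 0.000619) and was not tested in dexamethasone mice because it fell under the count filter there. Ccn2, connective tissue growth factor, had medians of 11.1 CPM in dDG and 33.2 in vDG (log2 -1.55, adjusted p = 0.000232). Agt, angiotensinogen, which astrocytes make in brain, had medians of 12.4 CPM in dDG and 36.8 in vDG (log2 -1.65, adjusted p = 0.000235). Igsf21, an immunoglobulin superfamily synaptic adhesion protein, was higher in vDG in 15 of 15 mice (log2 -1.61, adjusted p = 2.79e-05). The transcription factors Cux2 and Meis2, with Nr2f2, complete the set and are described with their group. At equal granule level all 15 ventral genes stayed called. With the CA1 level added, Unc13c, Agt, Igsf21, Col6a1 and Ccn2 on the ventral side and Lct, Dsp, Ndst4, Orai2 and Fam163b on the dorsal side were no longer under the threshold, with adjusted p from 0.050002 for Fam163b to 0.83 for Dsp. The log2 values of the 5 ventral genes in that fit were -1.19, -0.96, -1.13, -1.73 and -1.29, so Col6a1 was no smaller than in the fit without these levels. Those of the 5 dorsal genes were 1.32, 0.22, 1.06, 0.73 and 0.65.

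**Figure D4:**
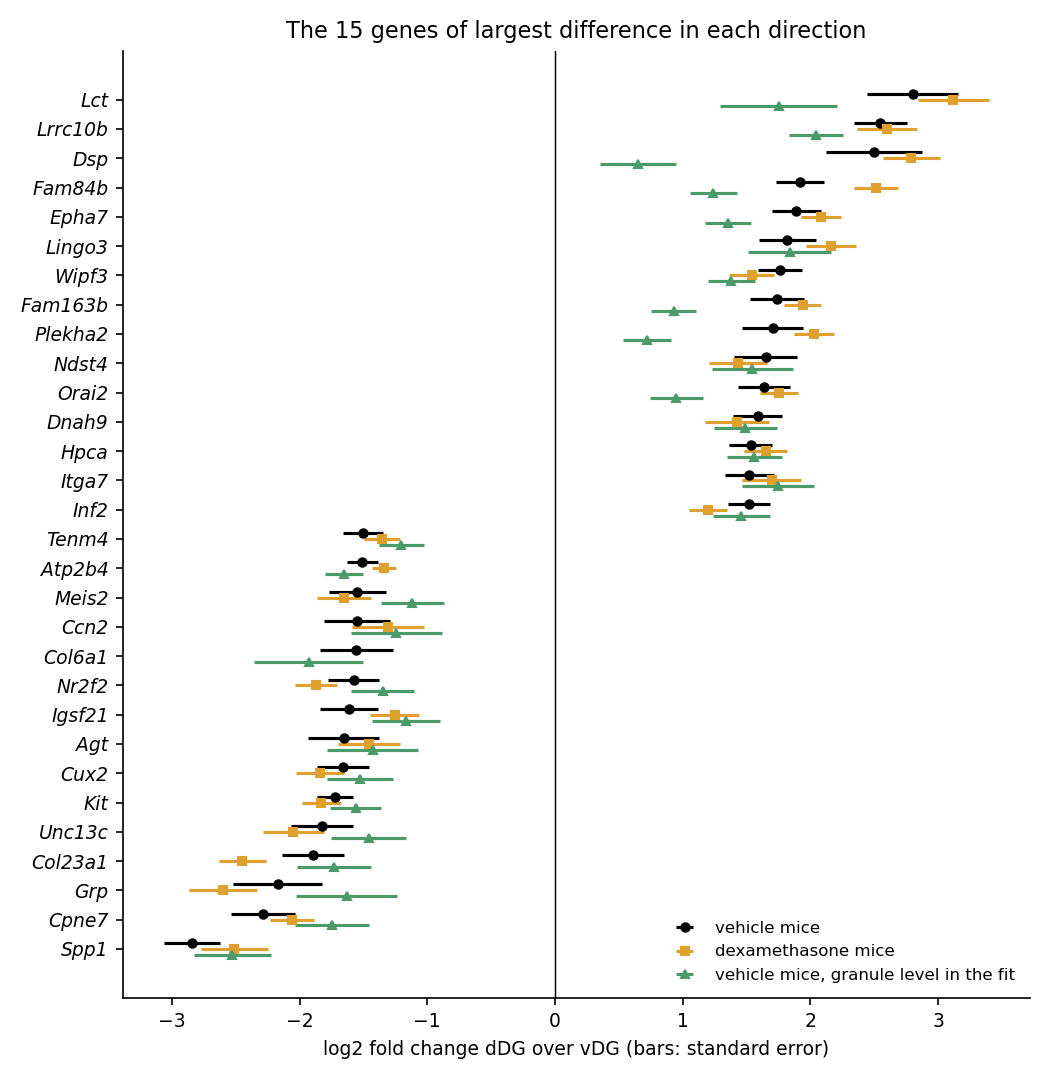
Log2 fold change of dDG over vDG with its standard error for the 15 genes of largest difference in each direction, in vehicle mice (black), dexamethasone mice (orange; Col6a1 was not tested there) and vehicle mice with the granule level in the fit (green). All points of a gene lie on 1 side of 0; Dsp moves most, from 2.50 to 0.65 at equal granule level.

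Because Nr2f1, Nr2f2 and Meis2 were higher in vDG and Neurod2 higher in dDG, the promoters of the largest-difference genes were searched for short motifs known to be bound by these families: AGGTCA, the nuclear receptor half-site used by NR2F proteins, TGACAG, bound by MEIS proteins, and CAGATG, an E-box bound by NeuroD proteins, on both strands. The windows are the 250 bases before each RefSeq start site (GRCm38.p6), and 23 of the 30 genes matched by symbol. The 4 windows shown are from calcium and actin genes and a collagen described above whose window holds an NR2F half-site or a MEIS motif, 2 from each direction. They are written 5′ to 3′ on the strand of the gene, with the motif, or its reverse complement where it lies on the other strand, in capitals; no 2 motif matches overlapped. Hpca has 3 start sites in the table, and the window of the 1 that holds a match is shown. The Atp2b4 window precedes an internal start site, well inside the span given above for the gene, and the gene's outer start was not searched.
Hpca (chr4:129121748-129121997, minus strand): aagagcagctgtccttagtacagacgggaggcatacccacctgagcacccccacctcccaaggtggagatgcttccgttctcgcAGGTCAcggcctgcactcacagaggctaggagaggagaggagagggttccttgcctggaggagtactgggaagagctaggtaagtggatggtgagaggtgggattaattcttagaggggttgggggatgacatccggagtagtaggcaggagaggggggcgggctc
Inf2 (chr12:112588517-112588766, plus strand): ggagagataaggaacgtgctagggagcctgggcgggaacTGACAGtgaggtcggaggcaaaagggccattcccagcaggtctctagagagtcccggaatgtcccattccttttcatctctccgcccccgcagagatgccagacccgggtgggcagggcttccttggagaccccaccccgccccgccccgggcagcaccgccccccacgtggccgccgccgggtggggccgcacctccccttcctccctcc
Col23a1 (chr11:51289670-51289919, plus strand): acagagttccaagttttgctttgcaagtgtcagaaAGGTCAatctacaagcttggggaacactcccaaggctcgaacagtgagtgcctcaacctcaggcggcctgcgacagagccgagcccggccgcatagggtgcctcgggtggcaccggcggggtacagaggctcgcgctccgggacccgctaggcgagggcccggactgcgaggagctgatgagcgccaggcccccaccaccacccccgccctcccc
Atp2b4 (chr1:133753748-133753997, minus strand): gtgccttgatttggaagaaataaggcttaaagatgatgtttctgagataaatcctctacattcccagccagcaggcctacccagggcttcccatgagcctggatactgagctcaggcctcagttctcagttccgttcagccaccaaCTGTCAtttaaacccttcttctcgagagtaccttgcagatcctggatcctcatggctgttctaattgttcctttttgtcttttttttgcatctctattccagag
Hpca and Col23a1, which differ in opposite directions, both hold the half-site, and Inf2 and Atp2b4, also opposite, both hold the MEIS motif. The choice of windows fixed these opposite directions. Orai2 also held the half-site, and Lingo3 and Cux2 also held the MEIS motif. The E-box CAGATG was found in Lingo3, Orai2, Cux2 and Agt. The promoters of Nr2f2, Meis2, Spp1, Kit, Tenm4, Lct, Lrrc10b, Epha7 and Wipf3 held none of the 3 motifs in these windows. AGGTCA occurred in 7.99% of 563 promoters of genes higher in dDG, 8.78% of 524 promoters of genes higher in vDG and 9.8% of 9080 promoters of all tested genes. TGACAG occurred in 14.2%, 11.6% and 13.4%, and CAGATG in 10.3%, 13.0% and 9.48%, in the same order. These shares describe letters in a window, not bound sites.

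Transcription factors of patterning and neuronal identity came next in the order of roles. Of 59 tested, 10 were higher in dDG and 16 higher in vDG, 44.1% against 11.6% of all genes, with a median of -0.02. Neurod2, a basic helix-loop-helix factor of excitatory neurons (chr11:98325415-98329648, minus strand), ran from 155 to 458 CPM (median 275) in dDG and from 37.5 to 197 CPM (median 114) in vDG. In 15 of 15 mice dDG had more (log2 difference 1.32 with SE 0.12 and adjusted p = 7.93e-08), and stayed so at equal granule level, log2 1.10 (adjusted p = 3.66e-05). Bcl11b, the zinc finger protein CTIP2 that granule cells and CA1 cells express, ran from 335 to 964 CPM (median 699) in dDG and from 67.9 to 609 CPM (median 286) in vDG. dDG had more in 14 of 15 mice (log2 1.47, adjusted p = 9.69e-06). Zfhx4, a zinc finger homeobox factor, had separate groups, from 46.9 to 104 CPM (median 63.4) in dDG and from 13.1 to 43.9 CPM (median 29.3) in vDG (log2 1.16, adjusted p = 4.91e-06). On the ventral side, the homeobox factor Cux2 ran from 6.85 to 30.1 CPM (median 19.3) in dDG and from 21.1 to 93.8 CPM (median 60.1) in vDG. The ventral punch had more in 14 of 15 mice (log2 -1.66, adjusted p = 4.91e-06). Meis2, a homeobox cofactor, ran from 25.7 to 99.6 CPM (median 51.1) in dDG and from 43 to 245 CPM (median 182) in vDG and was higher in vDG in 14 of 15 mice (log2 -1.55, adjusted p = 3.75e-05). Prox1, the factor that defines granule cell identity, had a log2 value of 0.76 that did not pass the test (adjusted p = 0.0661) in vehicle mice, and was log2 1.05 (adjusted p = 0.000385) in dexamethasone mice. At equal granule level 11 of the 26 called factors remained called.

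Of 16 tested members of the retinoic acid and Wnt pathways, 3 were called (18.8% against 11.6% of all genes), 1 higher in dDG and 2 higher in vDG. Rspo2, a secreted enhancer of Wnt signalling, had medians of 7.77 CPM in dDG and 37.3 in vDG and was higher in vDG in 12 of 15 mice (log2 -1.68, adjusted p = 0.000647). Calb2 (calretinin), which hilar mossy cells of the mouse express, had log2 -1.22, adjusted p = 0.0223; it was 1 of 2 tested mossy cell markers, and the other, Ociad2, had 0.43 and did not pass (in dexamethasone mice log2 0.36, adjusted p = 0.0476). Drd2, also on the mossy cell list, was at 0 in all 30 libraries. Frzb, a secreted Wnt antagonist, had log2 -0.83, adjusted p = 0.0296, and Tcf7l2, the nuclear Wnt effector abundant in thalamus, log2 0.67, adjusted p = 0.0429. The call of Frzb was lost without replicate 2, 3, 7, 8, 9 or 13 (log2 from -0.82 to -0.69, adjusted p from 0.0502 to 0.0758), and that of Tcf7l2 without replicate 5, 6, 9, 12, 13 or 14 (log2 from 0.50 to 0.65, adjusted p from 0.0709 to 0.0962). Rspo2 lost its call with the choroid level in the fit, log2 -1.36 (adjusted p = 0.0606), and was log2 -0.73 (adjusted p = 0.46) in the 5 mice with a low choroid level. In dexamethasone mice Rspo2 was log2 -1.06 (adjusted p = 0.0046), while Frzb was log2 -0.41 (adjusted p = 0.26) and Tcf7l2 log2 0.13 (adjusted p = 0.73), so neither of the latter was called there. With the granule level in the fit Frzb was log2 -1.96 (adjusted p = 3.94e-05) and Tcf7l2 log2 0.82 (adjusted p = 0.13). Of 6 tested thalamic and habenular markers, 2 were higher in dDG, Tcf7l2 among them, and 1 was higher in vDG. That is 50% called against 11.6% of all genes, with log2 values from -0.60 to 0.73. Their summed level ran from 226 to 885 CPM in dDG (median 412) and from 251 to 668 CPM in vDG (median 429). The part of these tissues in Tcf7l2 was not tested.

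Of 42 axon guidance genes tested, 12 were higher in dDG and 10 higher in vDG (52.4% called against 11.6% of all genes, median 0.04), and their summed level was higher in dDG in 15 of 15 mice. Epha7, a receptor for ephrin-A ligands (chr4:28813131-28967499, plus strand), ran from 310.2 to 901 CPM (median 552) in dDG and from 58.3 to 373 CPM (median 131) in vDG, so that its groups overlapped in part. It was 3.71-fold higher in dDG, in 15 of 15 mice (log2 difference 1.89 with SE 0.19 and adjusted p = 5.31e-07), and log2 1.36 (adjusted p = 4.60e-05) at equal granule level. Epha4 and Epha5, receptors of the same family, were also higher in dDG, with medians of 452 CPM in dDG and 268 in vDG for Epha4 (log2 0.95, adjusted p = 2.90e-05) and medians of 278 CPM in dDG and 194 in vDG for Epha5 (log2 0.67, adjusted p = 0.00155). The ligand Efnb2 went the other way, as given above. Slit2, a secreted repellent for Robo receptors, was higher in vDG in 13 of 15 mice (medians of 27.7 CPM in dDG and 49.8 in vDG; log2 -0.89, adjusted p = 0.0013). Sema5a, a membrane semaphorin, had medians of 249 CPM in dDG and 104 in vDG and was higher in dDG in 12 of 15 mice (log2 1.15, adjusted p = 0.00151), but log2 0.20 (adjusted p = 0.53) at equal granule level. At equal granule level, 10 of the 22 remained called.

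Of 26 cadherins and protocadherins tested, 2 were higher in dDG and 9 higher in vDG (42.3% called against 11.6% of all genes, median -0.18). Pcdh11x ran from 16.9 to 54.2 CPM (median 30.1) in dDG and from 38.3 to 107 CPM (median 56) in vDG. In 14 of 15 mice vDG had more (log2 -1.07, adjusted p = 8.15e-05). Pcdh15, Cdh20, Cdh13, Cdh10 and Pcdh10, all calcium-dependent adhesion proteins, had log2 values of -1.10, -1.04, -0.83, -0.66 and -0.55, with adjusted p from 0.000474 to 0.00238. At equal granule level 2 of the 11 kept the call. Among 52 synaptic organisers, 6 were higher in dDG and 11 higher in vDG (32.7% called against 11.6% of all genes, median -0.16), and 4 of the 17 kept the call at equal granule level. Besides Tenm4, its relative Tenm2 ran from 75.2 to 144 CPM (median 104) in dDG and from 119 to 306 CPM (median 209) in vDG (log2 -0.98, adjusted p = 1.07e-05). The paralogues Cadm1 and Cadm2, immunoglobulin-type synaptic adhesion proteins, went opposite ways: Cadm1 ran from 256 to 419.7 CPM (median 347) in dDG and from 330.2 to 667 CPM (median 587) in vDG (log2 -0.63, adjusted p = 1.01e-05). Cadm2 ran from 642 to 1052 CPM (median 882) in dDG and from 382 to 771 CPM (median 497) in vDG (log2 0.70, adjusted p = 6.17e-06). Cadm1 was higher in vDG in 15 of 15 mice and Cadm2 higher in dDG in 15 of 15 mice, and both were among those 4, with log2 -0.67 (adjusted p = 0.000327) and log2 0.66 (adjusted p = 0.000778). Lrrtm4, a postsynaptic organiser of granule cell dendrites, was 0.89 (adjusted p = 0.00111) and log2 0.38 (adjusted p = 0.32) at equal granule level; 25.1% of its exon bases overlap Gm4409 on the other strand, which had 1 count in all. Ptprd, a presynaptic receptor phosphatase, was log2 -0.54, adjusted p = 0.00143.

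Of 29 extracellular matrix genes tested, 11 were called, 1 higher in dDG and 10 higher in vDG (37.9% called against 11.6% of all genes, median -0.31), and their summed level was higher in vDG in 14 of 15 mice. Timp2, an inhibitor of matrix metalloproteinases, ran from 101 to 255 CPM (median 157) in dDG and from 217 to 481 CPM (median 352) in vDG. vDG had more in 15 of 15 mice (log2 difference -1.12 with SE 0.11 and adjusted p = 5.31e-07), log2 -1.47 (adjusted p = 5.65e-09) in dexamethasone mice and log2 -0.96 (adjusted p = 0.000155) at equal granule level. The proteoglycan Spock1 had medians of 71.4 CPM in dDG and 129 in vDG (log2 -0.94, adjusted p = 0.000337), and Spock2 medians of 275 CPM in dDG and 337 in vDG (log2 -0.31, adjusted p = 0.0143). Of 3 tested markers of meninges, another source of collagens, 2 were higher in vDG, Ogn (log2 -0.98, adjusted p = 0.00238) and Col1a2 (log2 -0.69, adjusted p = 0.0205), 66.7% called against 11.6% of all genes. Ogn kept the call at equal granule level, log2 -1.14 (adjusted p = 0.0355), and was not tested in dexamethasone mice; Col1a2 was log2 -0.61 (adjusted p = 0.22) at equal granule level and log2 -1.15 (adjusted p = 0.00219) in dexamethasone mice. Their summed level ran from 20.7 to 197 CPM in dDG (median 99.6) and from 40 to 302 CPM in vDG (median 143), with vDG higher in 11 of 15 mice. Of 12 astrocyte markers tested, 0 were higher in dDG and 3 higher in vDG, S100b (log2 -0.62, adjusted p = 0.0164), Fgfr3 and Gjb6 (25% called against 11.6% of all genes). With the granule level in the fit 0 of these 3 kept the call, and the 95% interval of 5 of the 12 lay within 0.5 of 0. Their summed level ran from 5406 to 9016 CPM in dDG (median 7494) and from 6599.9 to 10570.0 CPM in vDG (median 8042). The part of either cell type in the matrix genes was not tested; at equal granule level 4 of the 11 matrix genes kept the call.

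Of 19 neuropeptides and related secreted factors tested, 3 were higher in dDG and 3 higher in vDG (31.6% called against 11.6% of all genes). Penk, the precursor of enkephalins, ran from 27.7 to 82.2 CPM (median 64.4) in dDG and from 16.6 to 130.0 CPM (median 26.6) in vDG. The dorsal punch had more in 14 of 15 mice (log2 0.87, adjusted p = 0.00163), although 1 ventral library had the highest value of all. Npy, neuropeptide Y, had medians of 94.3 CPM in dDG and 69 in vDG (log2 0.67, adjusted p = 0.00287), and Bdnf, a neurotrophin abundant in granule cells, medians of 118 CPM in dDG and 73.7 in vDG (log2 0.76, adjusted p = 0.00346); Bdnf was log2 0.20 (adjusted p = 0.58) at equal granule level. Sst, somatostatin, was higher in vDG in 13 of 15 mice (log2 -0.69, adjusted p = 0.0206), a call lost without replicate 7 or 11 (log2 from -0.63 to -0.61, adjusted p from 0.0503 to 0.0516). Grp and Resp18, both higher in vDG, were the 2 of these 6 that kept the call at equal granule level, where Npy was log2 0.61 (adjusted p = 0.078), Sst log2 -0.63 (adjusted p = 0.18) and Penk log2 0.65 (adjusted p = 0.17). In dexamethasone mice Sst was log2 -0.49 (adjusted p = 0.11). Of 11 interneuron markers tested, 1 (Npy) was higher in dDG and 4 were higher in vDG (45.5% called against 11.6% of all genes), among them Reln (log2 -0.77, adjusted p = 0.0189), Sst and Pvalb (log2 -1.15, adjusted p = 0.0287). With the granule level in the fit 0 of these 5 kept the call, the list's median went from -0.50 to -0.18, Reln was log2 -0.52 (adjusted p = 0.37) and Pvalb log2 -0.22 (adjusted p = 0.80). Their summed level ran from 819.6 to 1704 CPM in dDG (median 1159.8) and from 1188 to 1790.3 CPM in vDG (median 1588), with vDG higher in 12 of 15 mice, while Gad1 and Gad2, the enzymes that make GABA, had -0.24 and -0.28 and did not pass. The part of interneuron number in Sst and Npy was not tested. Among 11 peptide receptors tested, Oprl1, the nociceptin receptor, was the 1 called, 9.09% against 11.6% of all genes (log2 -0.53, adjusted p = 0.0196). It was not called by DESeq2 (log2 -0.53, adjusted p = 0.0535), in dexamethasone mice (log2 -0.35, adjusted p = 0.11) or at equal granule level (log2 -0.28, adjusted p = 0.49).

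Of 33 glutamate receptor genes and auxiliary subunits tested, 8 were higher in dDG and 4 higher in vDG (36.4% called against 11.6% of all genes, median -0.01), and the summed level was higher in dDG in 14 of 15 mice. The AMPA receptor subunit Gria1 ran from 768 to 1203 CPM (median 960.3) in dDG and from 238 to 1006 CPM (median 511) in vDG. In 14 of 15 mice dDG had more (log2 difference 0.86 with SE 0.13 and adjusted p = 7.39e-05). The NMDA receptor subunit Grin2a ran from 228 to 539 CPM (median 399) in dDG and from 114 to 379 CPM (median 168) in vDG. It was also higher in dDG in 14 of 15 mice (log2 difference 1.04 with SE 0.12 and adjusted p = 4.21e-06), and log2 0.85 (adjusted p = 0.001) at equal granule level. Auxiliary subunits that set AMPA receptor trafficking and kinetics were also measured: Cnih2 had medians of 452 CPM in dDG and 215 in vDG (log2 1.14, adjusted p = 1.50e-05). Shisa6 had log2 0.91, adjusted p = 4.65e-05 and Shisa7 log2 0.94, adjusted p = 0.000121. Gria4, an AMPA subunit prominent in interneurons, went the other way in 15 of 15 mice, with medians of 40.3 CPM in dDG and 72.4 in vDG (log2 -1.09, adjusted p = 0.00036). Grik4, a kainate receptor subunit typical of CA3 cells, had log2 -0.89, adjusted p = 0.00113. It was the 1 called of 6 tested CA2 and CA3 markers (16.7% against 11.6% of all genes), whose median was -0.07; the others ran from -0.41 for Nectin3 to 0.54 for Rgs14. Of the 12 called, 7 remained called at equal granule level.

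Of 16 inhibitory receptor subunits tested, 4 were higher in dDG and 2 higher in vDG (37.5% called against 11.6% of all genes). Gabra5, the alpha 5 subunit of extrasynaptic GABA-A receptors, ran from 110.0 to 263 CPM (median 193) in dDG and from 47.7 to 159 CPM (median 105) in vDG. dDG had more in 14 of 15 mice (log2 0.83, adjusted p = 0.000227). Gabra4, the alpha 4 subunit, had log2 0.54, adjusted p = 0.0299. Its call was lost without replicate 4, 11, 13, 14 or 15 (log2 from 0.45 to 0.51, adjusted p from 0.0532 to 0.0697), and with the granule and CA1 levels in the fit the value was log2 -0.07 (adjusted p = 0.94). Gabrg1 was higher in vDG in 14 of 15 mice (medians of 31 CPM in dDG and 53.5 in vDG; log2 -0.70, adjusted p = 0.000535), and Gabra3 in 12 of 15 mice (log2 -0.88, adjusted p = 0.014). At equal granule level Gabra5 and Gabrg1 kept the call and Gabra3 had log2 -0.17 (adjusted p = 0.73). With the CA1 level added Gabra5 was log2 0.37 (adjusted p = 0.42) and Gabrg1 log2 -0.61 (adjusted p = 0.16). Of 7 tested genes on the list of monoamine, acetylcholine, adenosine and cannabinoid receptors, 2 were called (28.6% against 11.6% of all genes). Chrm1, the M1 muscarinic receptor, was higher in dDG in 15 of 15 mice (medians of 164 CPM in dDG and 112 in vDG; log2 0.80, adjusted p = 0.000215), but log2 0.49 (adjusted p = 0.0677) at equal granule level and log2 0.25 (adjusted p = 0.56) with the CA1 level added. Cnr1, the cannabinoid receptor, was higher in vDG in 12 of 15 mice (log2 -0.41, adjusted p = 0.0228), lost its call without replicate 2, 7 or 11 (log2 from -0.38 to -0.34, adjusted p from 0.0503 to 0.0619) and was log2 -0.29 (adjusted p = 0.35) at equal granule level.

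Of 45 potassium and HCN channel genes, 14 were higher in dDG and 6 higher in vDG (44.4% called against 11.6% of all genes, median 0.10). Kcnab2, a beta subunit of Kv1 channels, ran from 192 to 399 CPM (median 252) in dDG and from 84.9 to 239.8 CPM (median 131) in vDG. The dorsal punch had more in 14 of 15 mice (log2 difference 0.99 with SE 0.14 and adjusted p = 4.12e-05), and log2 1.26 (adjusted p = 3.94e-05) at equal granule level. Kcnq3, a subunit of the M-current, had medians of 271 CPM in dDG and 169 in vDG (log2 0.64, adjusted p = 0.000395). Kcnk1, a 2-pore channel, had log2 0.62, adjusted p = 0.000354, with log2 0.34 (adjusted p = 0.0198) in dexamethasone mice and log2 0.35 (adjusted p = 0.14) at equal granule level. Of the 20 called potassium and HCN channel genes, 6 kept the call at equal granule level. Ventrally, Kcnj16, an inward rectifier, ran from 10.8 to 44.1 CPM (median 17.8) in dDG and from 33.2 to 86.3 CPM (median 58.5) in vDG. In 15 of 15 mice vDG had more (log2 difference -1.42 with SE 0.18 and adjusted p = 7.75e-06). Dpp10, an auxiliary subunit of A-type Kv4 channels, was higher in vDG in 15 of 15 mice (medians of 27.4 CPM in dDG and 76.9 in vDG; log2 -1.33, adjusted p = 4.12e-05). Of 31 calcium and sodium channel genes, 6 were higher in dDG and 0 higher in vDG (19.4% called against 11.6% of all genes). Scn3b, a sodium channel beta subunit, ran from 105 to 229 CPM (median 166) in dDG and from 26.5 to 122 CPM (median 66.4) in vDG. All 15 mice had more in dDG (log2 difference 1.29 with SE 0.13 and adjusted p = 5.93e-07). Cacna1h, a T-type calcium channel, had medians of 53.1 CPM in dDG and 28.1 in vDG (log2 1.22, adjusted p = 0.000121) and Cacna1e, an R-type channel, medians of 263 CPM in dDG and 149 in vDG (log2 0.63, adjusted p = 0.00581). Scn8a (log2 0.34, adjusted p = 0.00698), Ryr2 (log2 0.39, adjusted p = 0.0198) and Ryr1 (log2 0.88, adjusted p = 0.03) completed the 6, and Ryr1 lost its call without replicate 6, 7, 8, 11, 13, 14 or 15 (log2 from 0.78 to 0.86, adjusted p from 0.0513 to 0.0787). At equal granule level Scn3b was the 1 of these 6 that kept the call, with log2 1.09 (adjusted p = 0.000211). The value of Scn8a hardly moved, log2 0.34 (adjusted p = 0.0836), while its SE went from 0.08 to 0.11; Cacna1h, Cacna1e, Ryr2 and Ryr1 had smaller log2 values there, 0.59, 0.29, 0.15 and 0.22. In dexamethasone mice Scn8a was log2 0.51 (adjusted p = 6.10e-05) and Ryr2 log2 0.39 (adjusted p = 0.0547).

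Of 55 genes of calcium buffering and calcium signalling, 52.7% were called against 11.6% of all genes, 17 higher in dDG and 12 higher in vDG, and 16 of the 29 remained called at equal granule level. Camk2b, a subunit of the kinase CaMKII, ran from 606 to 1776 CPM (median 1062) in dDG and from 293 to 899.8 CPM (median 505) in vDG. dDG had more in 15 of 15 mice (log2 1.09, adjusted p = 3.97e-07). Camk2a, the other main neuronal subunit, ran from 3019 to 6355 CPM (median 4743) in dDG and from 1185 to 3799 CPM (median 2605) in vDG (log2 0.88, adjusted p = 6.47e-05). Nrgn, neurogranin, which binds calmodulin in dendrites, had medians of 2661 CPM in dDG and 1316 in vDG (log2 1.02, adjusted p = 7.75e-06). Necab1, an EF-hand calcium-binding protein, was higher in vDG, as was the pump Atp2b4: it ran from 16.1 to 69.1 CPM (median 37.3) in dDG and from 28.8 to 162 CPM (median 95.2) in vDG and was higher in vDG in 14 of 15 mice (log2 -1.36, adjusted p = 8.00e-06). The summed level of the group was higher in dDG in 14 of 15 mice.

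**Figure D5:**
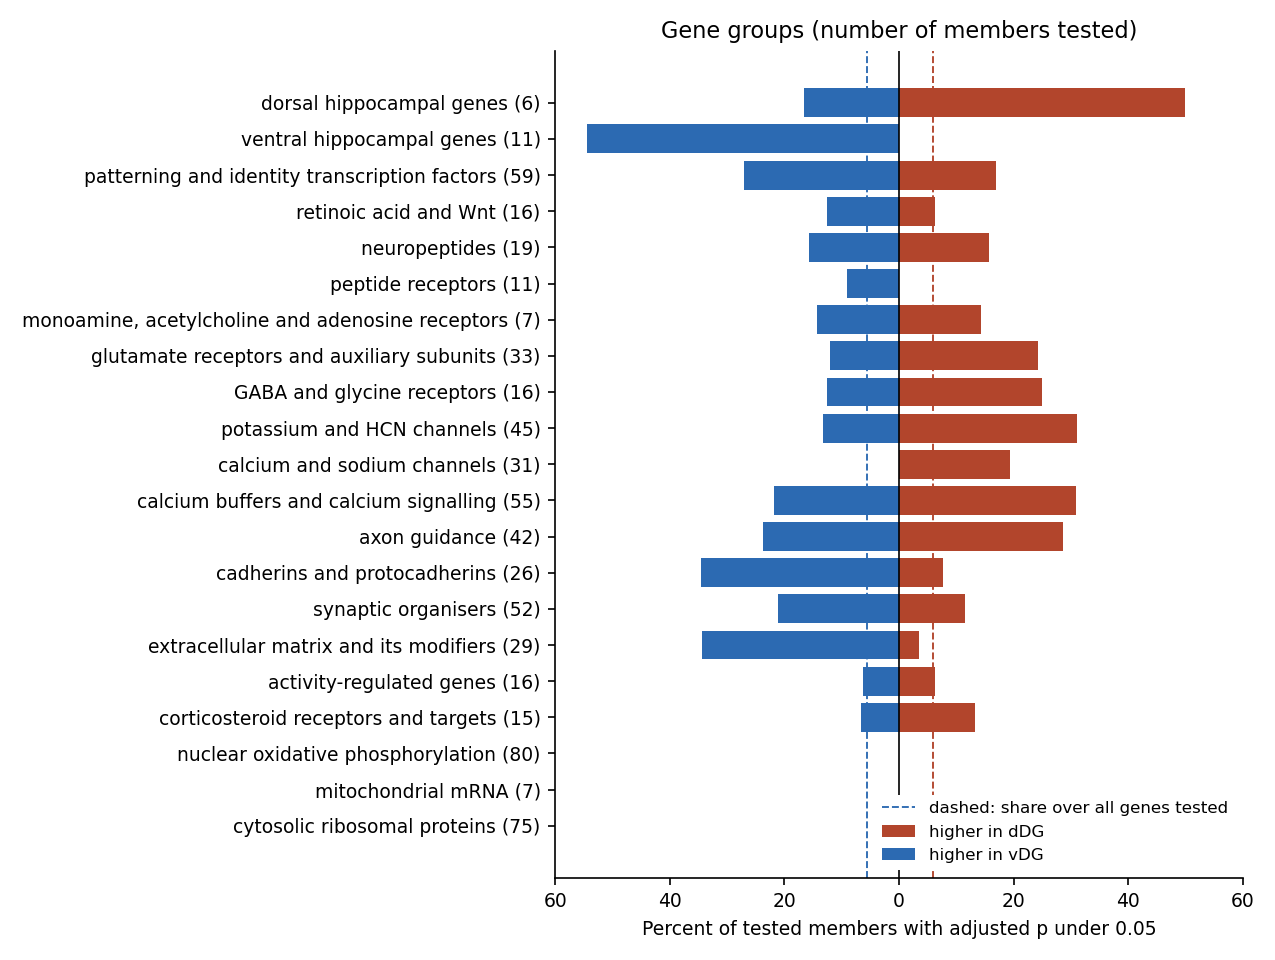
Percent of tested members (x axis, with the number tested after each group's name) that were higher in dDG (red, to the right) or higher in vDG (blue, to the left) at adjusted p under 0.05; dashed lines mark 5.92% and 5.63%, the shares over all tested genes. Extracellular matrix genes and cadherins reach farther to the ventral side, channels and glutamate receptors farther to the dorsal side, and ribosomal and oxidative phosphorylation genes have no bar.

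Corticosteroid receptors are the nuclear receptors through which dexamethasone and the adrenal hormones act. Nr3c2, the mineralocorticoid receptor, ran from 41.5 to 101 CPM (median 74.4) in dDG and from 22.1 to 63.7 CPM (median 33.5) in vDG. It was 2.11-fold higher in dDG, in 15 of 15 mice (log2 difference 1.08 with SE 0.14 and adjusted p = 1.07e-05), log2 1.16 (adjusted p = 5.96e-06) in dexamethasone mice and log2 0.97 (adjusted p = 0.00203) at equal granule level. Nr3c1, the glucocorticoid receptor, had a log2 value of 0.08 ± 0.10 (SE), 95% interval -0.13 to 0.29, and did not pass the test (adjusted p = 0.70). Of 15 genes on the list of receptors and targets 3 were called (20% against 11.6% of all genes). Besides Nr3c2, Klf9, a Krüppel-like factor induced by glucocorticoids, was also higher in dDG (medians of 778 CPM in dDG and 578 in vDG; log2 0.45, adjusted p = 0.00122) but not called in dexamethasone mice (log2 0.21, adjusted p = 0.0526), and Tsc22d3 (GILZ) was higher in vDG (medians of 81 CPM in dDG and 114 in vDG; log2 -0.48, adjusted p = 0.0131). Tsc22d3 lost its call at equal granule level, log2 -0.31 (adjusted p = 0.34), and with the choroid level in the fit, log2 -0.38 (adjusted p = 0.31), and it was log2 -0.0288 (adjusted p = 0.97) in the 5 mice with a low choroid level. Fkbp5 and Sgk1 had 0.31 and 0.35 and did not pass; in dexamethasone mice they were log2 -0.42 (adjusted p = 0.0104) and log2 -0.12 (adjusted p = 0.69). Among 16 activity-regulated genes tested, 2 were called (12.5% against 11.6% of all genes), Bdnf and the phosphatase Dusp1 (log2 -0.63, adjusted p = 0.0145). Neither kept the call at equal granule level, where Dusp1 was log2 -0.36 (adjusted p = 0.49) and Bdnf log2 0.20 (adjusted p = 0.58).

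Several large groups showed few or no calls. Of 80 nuclear oxidative phosphorylation genes, 0 were called by edgeR (3 at unadjusted p under 0.05), with a median of 0.00, and 74 had a 95% interval within 0.5 of 0. Of 75 cytosolic ribosomal protein genes, 0 were called (3 at unadjusted p under 0.05; median 0.07), and of 7 mitochondrial messenger RNAs 0 (0 at unadjusted p under 0.05). Oligodendrocyte markers had 0 of 12 called (3 at unadjusted p under 0.05), microglial markers 0 of 8 (0), and endothelial markers 0 of 7 (0). Their medians were -0.27, -0.05 and -0.07. The 95% interval lay within 0.5 of 0 for 0 of 12, 7 of 8 and 5 of 7 of them, so for oligodendrocyte markers a difference of that size was not excluded by these intervals. Of 11 granule cell markers tested, 6 were higher in dDG and 0 in vDG (54.5% called against 11.6% of all genes), with a median of 1.06. Beside Dsp, the called ones included Plk5 (log2 1.29, adjusted p = 0.00109), Tdo2 (log2 1.35, adjusted p = 0.00331), Stxbp6 (log2 1.06, adjusted p = 0.00447) and Npnt (log2 1.16, adjusted p = 0.0157). Their summed level ran from 274 to 2837 CPM in dDG (median 1444) and from 411 to 1783 CPM in vDG (median 656), higher in dDG in 12 of 15 mice.

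Among the named genes, 31 calls were lost at equal granule level. Besides those whose values at equal granule level are given above, they were Pcdh10, Pcdh15, Cdh20, Cdh10, Ptprd, Spock1, Spock2 and Gabra4. With the choroid level in the fit 24 calls were lost, those of Fibcd1, Ccn3, Rspo2, Frzb, Tcf7l2, Penk, Npy, Bdnf, Oprl1, Cnr1, Gabra3, Gabra4, Cacna1e, Scn8a, Ryr2, Ryr1, Sema5a, Epha5, Cdh10, Lrrtm4, Ptprd, Spock2, Dusp1 and Tsc22d3. With the granule and CA1 levels together 56 calls were lost and that of Gabra4 changed sign. The named calls that held in that fit were those of Atp2b4, Cadm1, Cadm2, Camk2b, Col23a1, Cpne7, Cux2, Dnah9, Dpp10, Efnb2, Epha7, Fam84b, Frzb, Grin2a, Grp, Hpca, Inf2, Itga7, Kcnab2, Kit, Lingo3, Lrrc10b, Meis2, Necab1, Neurod2, Nr2f1, Nr2f2, Nr3c2, Nrgn, Plekha2, Resp18, Rspo2, Scn3b, Spp1, Sst, Tenm2, Tenm4, Timp2, Wipf3 and Zfhx4.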

How the data were processed

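The authors deposited 1 table of raw counts per gene for 27998 genes in 235 libraries. Per the submitters' processing notes, the tools were FastQC 0.11.4, cutadapt, UMI-tools 0.5.4, STAR 2.6.0a, featureCounts 1.6.4, DESeq2 1.30.1 and R 4.0.5, with build mm10; the annotation and the use of strand are not given in the sources used here, so reads of overlapping antisense genes cannot be told apart. 3' end counts with unique molecular identifiers are not scaled by transcript length, and CPM were not compared between single genes; the granule and CA1 levels were set side by side in each library only to mark mice left out of 1 alternative. Coordinates are those of the count table, from the first to the last exon base. The authors' variance-stabilised tables were not used, since each region was normalised separately. Symbols were found for 27645 genes.

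Here, genes passing filterByExpr were scaled by TMM and fitted with edgeR 4.0.16 (glmQLFit and glmQLFTest; R 4.3.3), with mouse as a block, over the 30 vehicle libraries; Benjamini-Hochberg adjustment was over all 8682 genes. Per the labels, both punches come from the same mouse; the deviations of the 2 punches of a mouse correlated between -0.29 and 0.40 (median 0.09). A positive log2 value is higher in dDG. Levels used a pseudocount of 1 CPM, and were compared by exact permutation within mice. Plates and punching dates were taken as batches when directions were compared within them. The reported fit held mouse and region but not plate, which entered as a factor only in an alternative. The 2 punches of most mice were on different plates. Alternatives were DESeq2 1.42.0, other scalings and filters, covariates (plate, RNA integrity and marker levels), thinning, and leaving out mice. All members and gene lists were chosen with earlier results of these data known. Named genes are the tested members of the dorsal and ventral lists, 15 per direction by size of change (mean of at least 10 CPM, same direction in at least 13 of 15 mice), and up to 6 called members of smallest p per gene group; marker lists are given by counts with a few members. A few genes in these counts are not reported here by name. Choroid class genes are the choroid and ependymal lists, and genes with a Spearman rho of at least 0.6 with the choroid level over the dexamethasone dDG libraries. Genes with a negative rho were kept, among them Grp (-0.76), Unc13c (-0.74) and Agt (-0.68). No pair of libraries of a group agreed within sampling noise (smallest chi-square per degree of freedom 1.71). The depth of 314375 to 1197849 counts per library limits what low genes can show.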

Additional observations from a re-analysis of the deposited data

How the results depend on the processing

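Most settings changed little: without the replicate block 996 genes were called, and scaling, DESeq2, plate and RNA integrity fits gave 921 to 1083 calls. Leaving out 1 mouse gave 794 to 1134 calls (402 to 595 higher in dDG, 378 to 570 higher in vDG). The block changed no named call apart from Sst, Gabra4 and Ryr2, which were lost without it (adjusted p of 0.109, 0.066 and 0.08). Counts moved as follows, as total, higher in dDG and higher in vDG: no filter 1654, 823 and 831; libraries thinned to the smallest total 662, 350 and 312; choroid level in the fit 338, 175 and 163; granule level in the fit 361, 199 and 162; 5 mice with a low choroid level in both libraries 183, 102 and 81. Settings chosen after seeing the data gave, for granule and CA1 levels together, 136, 53 and 83, and for the libraries of plates 1 to 3, 499, 279 and 220. The genes called in both vehicle and dexamethasone mice numbered 752, 487 with at least 10 counts in every library and 73 with the granule level in both fits. The share of calls that were higher in dDG was 51.2% in the reported fit and 39% with the granule and CA1 levels together. Among named genes under the threshold in the reported fit or in the alternative, signs changed for Htr2c with the choroid level in the fit (-1.18), for Gabra4 in the mice with a low choroid level (-0.123), and for Gabra4 (-0.0676) with the granule and CA1 levels together. Etv1, Wfs1, Man1a, Cyp26b1, Dcn and Htr2c, which were over the threshold in the reported fit, also changed sign under at least 1 setting that left them over it. Of 104 named genes, 73 kept their side of the threshold with the granule level in the fit, 79 with the choroid level, 47 with the granule and CA1 levels, 95 of 102 without the 4 mice whose CA1 level exceeded the granule level, and 50 of 103 in the mice with a low choroid level. Leaving out 1 mouse cost the call of 7 named genes (Ccn3, Frzb, Tcf7l2, Ryr1, Gabra4, Cnr1 and Sst). The causes were not tested.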
